A study of Mus musculus with 6 samples.

Results

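The genes described here are 44 long intergenic non-coding RNA (lincRNA) genes of the mouse pre-osteoblast line MC3T3, followed in cultures labelled as control and in cultures exposed for 48 hours to exosomes that HUVEC, endothelial cells of the human umbilical vein, had released. They are the rows of the deposited expression table that GENCODE M21 classes as lincRNA. Of 45 such rows, the abundant nuclear RNA Malat1 was left out, none lies on chromosome Y, and the table holds 680 genes in all. MC3T3 is a line from mouse skull bone that can form mineralising osteoblasts, and exosomes are small vesicles that cells secrete. Both groups were grown in α-MEM with serum, and each has 3 libraries that the labels number as biological repeats without stating separate cultures. The spread behind each p-value may therefore be technical. The labels name neither the exosome dose nor a vesicle-free control treatment.

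The table lists genes that the authors had picked as changed between these same libraries, as its file name says. A difference between the groups was therefore a condition for being listed, and every p-value below is too small as a measure of significance. Values are FPKM, a level per unit of exon length that is also scaled to sequencing depth. It is meant to let levels of genes of different length be compared. Multiplying FPKM by exon length gave back whole reads and library depths of 39630444 to 54429032 reads, with a mean depth 1.2 times higher in the exosome group. Of 10 osteoblast markers 1 is in the table, the bone matrix gene Dmp1, and of 7 endothelial, 7 macrophage and leukocyte and 5 adipocyte markers none is, so the labelled cell type could not be checked further. In bulk RNA, fewer cells expressing a gene and less of its RNA per cell cannot be told apart.

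LincRNA genes are transcribed from their own start sites between protein-coding genes. Their RNAs are often spliced and capped like messenger RNAs but lack a long conserved reading frame, and most are present at far lower levels than messenger RNAs. Some act near their own locus, on the transcription or chromatin of neighbouring genes, while others work elsewhere in the nucleus or in the cytoplasm, and for most no role is known. For this reason each gene is described here with its nearest coding gene.

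The sequences of 3 of the 44 are shown because the results turn on them. Bc1 had the largest rise on the log2(FPKM + 1) scale and the highest mean FPKM over the 6 libraries, although 3 of the genes were above it in control cells. It is a short cytoplasmic RNA, known from rodent neurons as a repressor of translation, that RNA polymerase III makes from a single exon. CT030636.1 had the largest fall on that scale, and CT030636.2 is its neighbour and fell with it. In Bc1 (GRCm38, chr7:144914470-144914637, plus strand, whole transcript) the capitals mark runs of at least 8 A. In the others, both on the minus strand of chromosome 17, they mark a 17-base run that CT030636.1 shares with the reverse complement of CT030636.2, the longest such run, whose letters resemble the start of Alu-like short interspersed repeats. CT030636.1 is shown whole and CT030636.2 from base 122 to base 258 of its transcript, all from the GENCODE M21 transcript set.
Bc1: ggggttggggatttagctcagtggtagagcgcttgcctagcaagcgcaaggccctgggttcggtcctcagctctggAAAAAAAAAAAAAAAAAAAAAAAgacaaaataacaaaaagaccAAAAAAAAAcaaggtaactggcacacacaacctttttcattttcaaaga
CT030636.1: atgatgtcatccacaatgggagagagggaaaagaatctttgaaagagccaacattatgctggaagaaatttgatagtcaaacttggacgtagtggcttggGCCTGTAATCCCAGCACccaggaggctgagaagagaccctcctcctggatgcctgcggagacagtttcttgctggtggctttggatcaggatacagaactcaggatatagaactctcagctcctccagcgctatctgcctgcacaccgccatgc
CT030636.2: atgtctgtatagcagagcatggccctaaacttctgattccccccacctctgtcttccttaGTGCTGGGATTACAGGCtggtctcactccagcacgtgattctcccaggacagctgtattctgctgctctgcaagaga
Bc1 has A runs of 23 and 9 bases, and its tRNA-like start belongs to the ID repeat family, which is present in many genomic copies. The 17-base run is, on either strand, in 5 of 9101 lincRNA transcripts of GENCODE M21 (0.0549%), and among the 69 transcripts of the 44 genes it is in those of CT030636.1 and CT030636.2 alone. Its presence in both was fixed by how the run was chosen. Only exact copies were counted, so the share is not that of the repeats it resembles. Reads from repeats can match other loci. How reads of these 3 genes were mapped is not stated, and an effect on their levels was not tested.

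The 44 genes are spread over 16 chromosomes, with 6 each on chromosomes 13 and 17. Of the 44, 37 have a transcript of more than 1 exon and 7 have single exons, and 29 have 1 annotated transcript. The label intergenic holds for 35, whose spans overlap no other annotated gene. Of the other 9, 8 overlap genes that are not classed as coding, and Zfp469 overlaps the coding gene model Gm20388. RefSeq lists 24 of the 44 by identifier or symbol and classes 22 as lncRNA, Zfp469 as protein-coding and Gm4961 as a transcribed pseudogene. Zfp469 carries the name of a zinc finger protein, whose human counterpart ZNF469 is linked to brittle cornea syndrome, so it is not a typical member of the class. It is also the only one of the 44 whose FPKM did not give back whole reads with the GENCODE exon length.

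Levels were low. The median over the 44 genes was 0.105 FPKM, against 0.165 for the 334 protein-coding genes of the table and 0.187 for all 680. In the group where each was higher, 8 genes reached 1 FPKM on average and 24 stayed under 0.2 FPKM. In reads, the median gene had a mean of 8.5 per library, and 22 of the 44 genes had fewer than 10. Small read numbers were mostly even (74.7% of 1691 values between 2 and 21), so single reads cannot be taken as independent fragments.

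With exosomes, 15 of the 44 lincRNA genes had a higher mean and 29 a lower mean (65.9% lower, against 74% of all 680 genes). In limma fits of log2(FPKM + 1) on treatment, with p-values adjusted by Benjamini-Hochberg across the 680 genes, 24 of the 44 passed an adjusted p of 0.05. That is 54.5%, against 59.3% of all genes of the table; the share is near that of the table. Of the 24, 9 rose (20.5%, against 15.4% of all genes) and 15 fell (34.1%, against 43.8%). Groups did not overlap in 36 of the 44 (81.8%, against 86.9%), 14 of them higher (31.8% of the 44, against 22.8% of the 680) and 22 lower (50% of the 44, against 64.1% of the 680). After each library was centred on its median over the 680 listed genes, 17 of the 44 passed as higher and 5 as lower. Over the 680 genes, 212 passed as higher and 112 as lower. That median shifted by −0.146 with exosomes, in a table where 74% of genes had a lower mean. The listing itself thus shapes the shift, and this fit cannot test library scaling. The number of calls changed when single libraries were left out, over the whole table as well. Such a fit also has fewer libraries, so a call can be lost with an unchanged difference. Of the 44, 14 passed without control library 2 (43.8% of all 680 genes), 9 without exosome library 2 (24.1%) and 10 without exosome library 3 (27.1%). The median log2 difference was −0.09 over the 44 and −0.13 over all 680. Among the 24 genes with more than 3 reads in both groups, the median fold was 2.79 (from 1.99 to 8.33), and it was 2.61 over 493 genes of the table. The smallest fold among listed genes was 1.93.

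**Figure D1:**
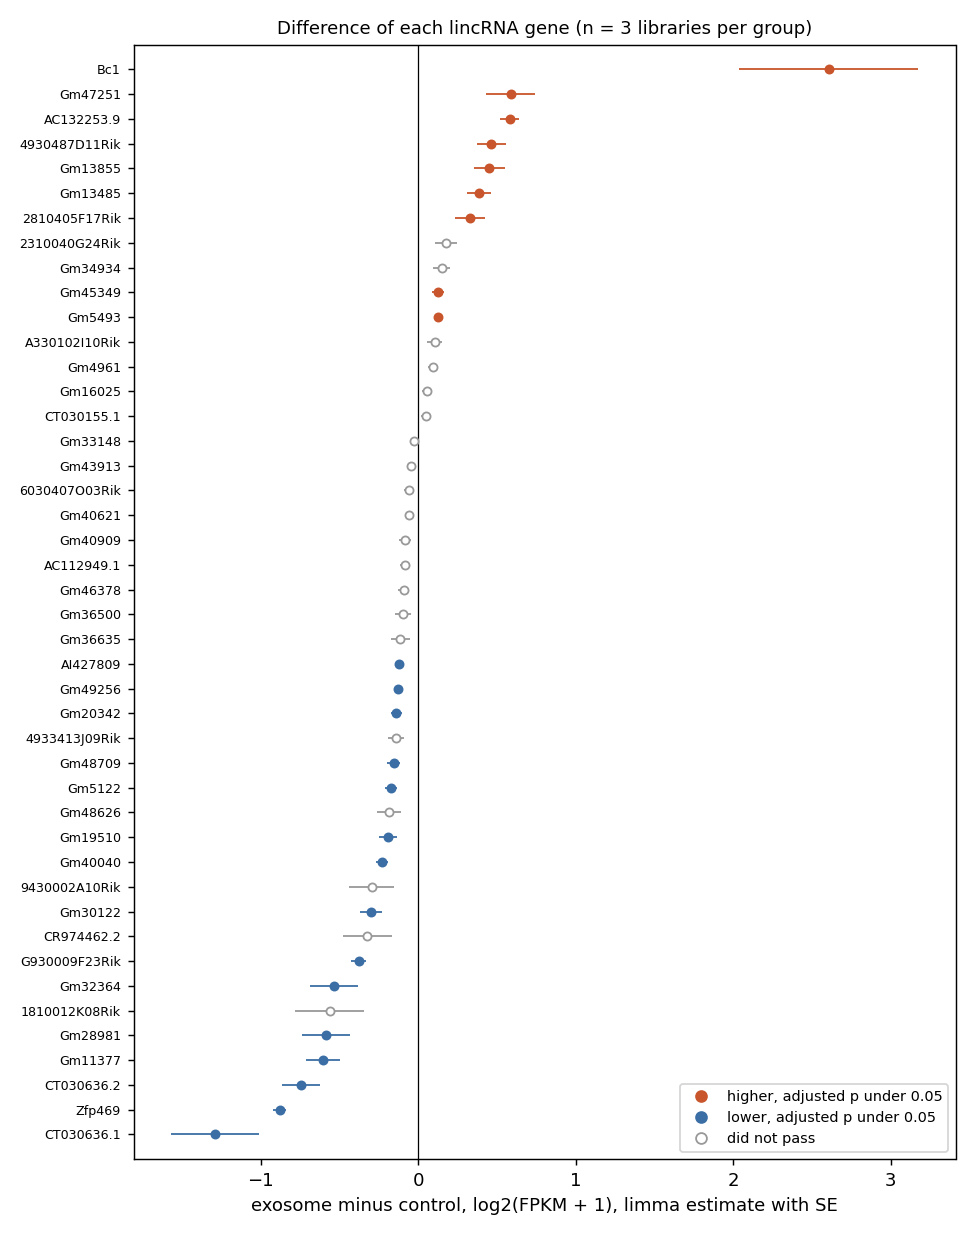
Exosome minus control difference of each of the 44 lincRNA genes on the log2(FPKM + 1) scale, with its limma standard error; filled points passed an adjusted p of 0.05. Bc1 stands at 2.61, well above the next rise at 0.59, and only Bc1 among the rises passes 1.

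Bc1 rose 8.33-fold. The gene (ENSMUSG00000115783, chr7:144914470-144914637, plus strand) had a level of 4.36, 2.19 and 0.984 FPKM in control libraries 1, 2 and 3, and 9.02, 29.9 and 23.8 FPKM in exosome libraries 1, 2 and 3. The groups did not overlap, but the spread within each was wide, and exosome library 1 lay closest to the control group. The means were 2.51 ± 1.71 and 20.9 ± 10.7 FPKM (SD, n = 3), and the log2 difference was 2.61 ± 0.57 (SE, limma adjusted p = 0.0186). In reads these were 29, 16 and 8 against 79, 273 and 205, on an exon of 168 bases. The libraries came from kits for messenger RNA, and how these capture a short RNA polymerase III transcript was not tested. The call was lost when control library 2, exosome library 2 or exosome library 3 was left out (limma adjusted p = 0.0507, 0.0578 and 0.0625). In these fits the log2 difference was 2.60, 2.28 and 2.44. Without control library 1 the fold was 13.2. Bc1 lies 463 bases upstream of LTO1 on the same strand.

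Bc1 also weighed heavily on the summed FPKM with exosomes. FPKM divides by exon length, and its 168 bases are the shortest of the 44. In reads its mean was 102 per library, below the 188 of AC132253.9 and the 490 of Zfp469, whose count was not whole. Summed over the 44 genes, the level was 26.6 to 29.4 FPKM in the control libraries and 23, 44 and 41.5 FPKM in exosome libraries 1, 2 and 3. Without Bc1 it was 25.1, 27.1 and 25.6 FPKM against 14, 14.2 and 17.7 FPKM, a difference carried mostly by CT030636.1, CT030636.2 and Zfp469. Without these 3 as well, a sum formed after seeing the data, the other 40 genes had 10.0, 11 and 10.4 FPKM against 9.3, 7.8 and 10.2 FPKM, and the groups overlapped. The number of the 44 genes with any read was 33 to 37 in control and 32 to 34 in exosome libraries.

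**Figure D2:**
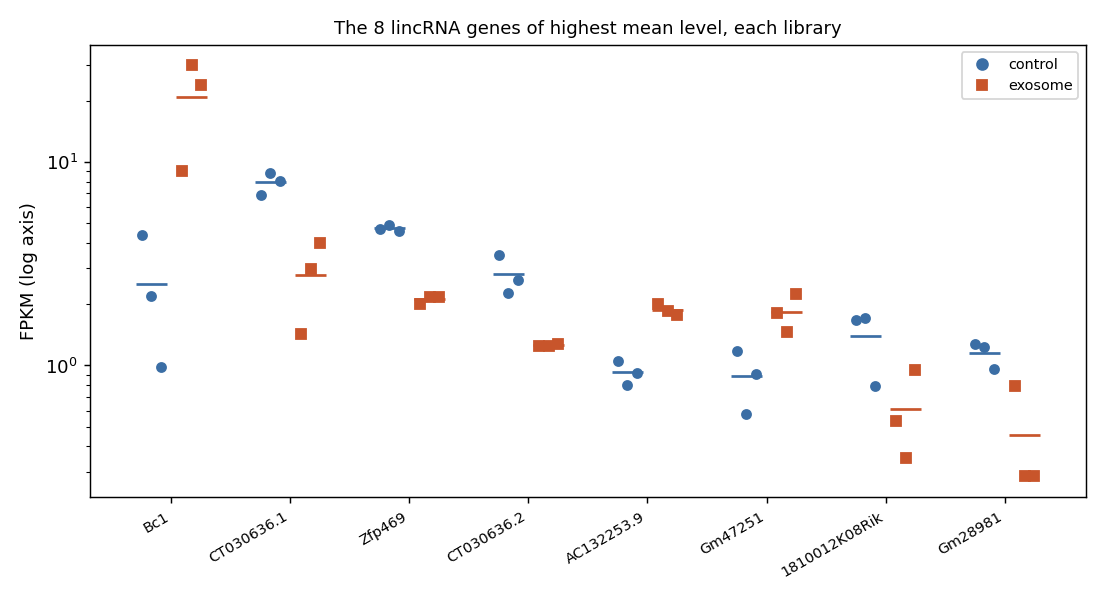
FPKM (log axis) of the 8 lincRNA genes with the highest mean level in each control library (circles) and exosome library (squares); lines are group means of 3 libraries. Bc1, AC132253.9 and Gm47251 are higher with exosomes without overlap, and of the 5 lower genes only 1810012K08Rik overlaps.

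On the log2(FPKM + 1) scale the largest fall was that of CT030636.1, 1 of a pair of lincRNA genes inside the span of Airn. By fold, 5 other lower genes that passed and had more than 3 reads in both groups fell further, from 3.27-fold for Gm11377 to 7.14-fold for Gm5122 (4.76-fold without exosome library 2 or 3). Airn is an imprinted long non-coding RNA, transcribed in mouse from the paternal allele, that runs antisense through the start of Igf2r and silences it; Igf2r encodes a receptor that carries lysosomal enzymes and removes insulin-like growth factor 2. CT030636.1 (ENSMUSG00000117030, chr17:12784882-12791660, minus strand) had 6.85, 8.86 and 8.06 FPKM in the control libraries and 1.44, 2.97 and 3.99 FPKM in the exosome libraries. Every exosome library was below every control library, with exosome library 1 the lowest. The means were 7.92 ± 1.01 and 2.8 ± 1.29 FPKM (SD, n = 3), a 2.83-fold fall, with a log2 difference of −1.29 ± 0.28 (SE, limma adjusted p = 0.0188). The call was lost without control library 2 or exosome library 2 (limma adjusted p = 0.0541 and 0.0556).

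CT030636.2, whose span lies 4086 bases from that of CT030636.1 (ENSMUSG00000117061, chr17:12795746-12800795, minus strand), had 3.5, 2.28 and 2.64 FPKM in control and 1.25, 1.25 and 1.27 FPKM in exosome libraries. The exosome libraries were nearly equal and lay below all control libraries. The 2.23-fold fall, −0.74 ± 0.12 on the log2 scale (standard error; limma adjusted p = 0.0104), passed in all 14 alternative fits. Both genes lie on the same strand as Igf2r and upstream of it, at 15218 and 26082 bases, and Igf2r is not among the 680 genes.

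All 5 listed rows that touch the span of Airn were lower and passed. Airn itself (ENSMUSG00000078247, chr17:12741311-12860136, plus strand) had a mean of 7.14 ± 0.539 in control and 3.27 ± 0.441 in exosome libraries (FPKM, SD, n = 3; limma adjusted p = 0.00512). Like that of Zfp469, its FPKM did not give back whole reads with the GENCODE exon length. The processed pseudogenes Gm16574 and Gm7162, which lie further along Airn, had 5.56 ± 1.18 against 2.48 ± 0.21 FPKM and 3.19 ± 0.942 against 1.48 ± 0.203 FPKM (SD, n = 3; limma adjusted p = 0.00898 and 0.026). The folds of Airn, Gm16574 and Gm7162 were 2.18, 2.24 and 2.16, against 2.23 for CT030636.2 and 2.83 for CT030636.1. Genes elsewhere had like folds (2.24 for Zfp469 and 2.29 for Dmp1), and the smallest fold among listed genes was 1.93. Closeness of the folds therefore does not link these rows. CT030636.1 and CT030636.2 lie on the strand opposite to Airn. Whether reads were assigned by strand is not stated in the labels, and without strand reads of these genes and of Airn cannot be told apart, so the 5 rows are not independent of each other. Of a list of 49 lncRNA genes with a known role, which holds neither Malat1 nor any of the 44, 2 are in the table, Airn and Fendrr, a lncRNA needed for heart and body wall development in the mouse, and both fell. Fendrr had 8.82 ± 0.415 FPKM in control and 3.96 ± 0.454 FPKM in exosome libraries (SD, n = 3; limma adjusted p = 0.00323).

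**Figure D3:**
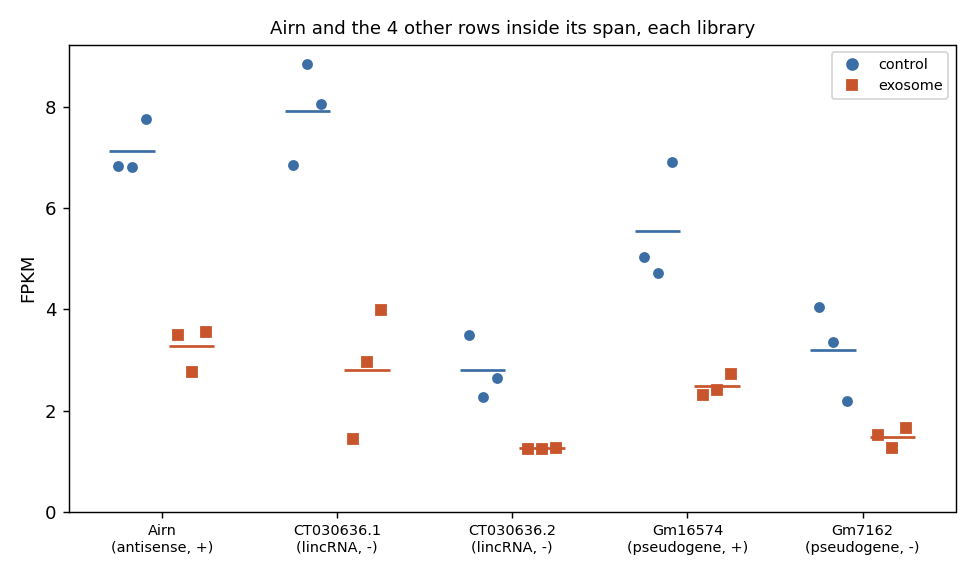
FPKM of Airn and of the 4 other rows inside its span in each control library (circles) and exosome library (squares), with group means of 3 libraries; strand is given under each name. In all 5 rows the exosome libraries lie below the control libraries.

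Zfp469, the gene that RefSeq classes as coding, had the smallest standard error relative to its difference among the falls. It (ENSMUSG00000043903, chr8:122269569-122272650, plus strand) had 4.7, 4.92 and 4.56 FPKM in control and 2, 2.16 and 2.17 FPKM in exosome libraries. The groups were far apart relative to their spread, and the 2.24-fold fall was −0.88 ± 0.04 on the log2 scale (standard error; limma adjusted p = 0.00139). It passed in all 13 alternative fits that could include it. Gm20388, a coding gene model, overlaps it on the same strand, so the assignment of its reads is uncertain.

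Gm11377 and Gm28981 complete the 5 largest falls that passed, on the log2(FPKM + 1) scale. Gm11377 (ENSMUSG00000087220, chr13:31564749-31573562, plus strand) lies 3773 bases downstream of Foxq1, a forkhead transcription factor gene, on the same strand. It had 0.791, 0.959 and 1.14 FPKM in control and 0.2, 0.219 and 0.465 FPKM in exosome libraries, without overlap. The log2 difference was −0.60 ± 0.11 (SE, limma adjusted p = 0.0128), and the call held in all 13 alternative fits that included it. Gm28981 (ENSMUSG00000101895, chr1:64185991-64303043, minus strand), which lies 63709 bases upstream of Klf7, a Krüppel-like transcription factor gene, had 1.27, 1.23 and 0.963 FPKM in control and 0.789, 0.285 and 0.287 FPKM in exosome libraries. All exosome values were below all control values, with exosome library 1 the nearest. The log2 difference was −0.58 ± 0.15 (SE, limma adjusted p = 0.0282), a 2.54-fold fall that became 4.03-fold without exosome library 1. This call was lost when control library 1 or 2, or exosome library 2 or 3, was left out (limma adjusted p = 0.0725, 0.0765, 0.0833 and 0.0802) and after median centring (0.0559).

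G930009F23Rik, downstream of the antizyme inhibitor gene Azin1 by 32293 bases, fell, with 0.647 ± 0.0455 FPKM in control and 0.269 ± 0.065 FPKM in exosome libraries (SD, n = 3; limma adjusted p = 0.00634). Its groups did not overlap, and the call held in all 13 alternative fits that included it. 1810012K08Rik (ENSMUSG00000087595, chr2:26138546-26139543, plus strand), the remaining gene above 1 FPKM, had 1.67, 1.72 and 0.792 FPKM in control and 0.535, 0.352 and 0.951 FPKM in exosome libraries. Control library 3 lay below exosome library 3, and the gene did not pass (log2 difference −0.56 ± 0.22, SE, limma adjusted p = 0.0707; 0.0342 without control library 3).

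AC132253.9 had the smallest adjusted p among the rises. It (ENSMUSG00000118383, chr19:9828899-9836897, minus strand) had 1.06, 0.8 and 0.92 FPKM in control and 2.01, 1.85 and 1.78 FPKM in exosome libraries, from 94 to 120 reads against 246 to 282. The groups lay well apart. The rise was 2.03-fold, a log2 difference of 0.58 ± 0.06 (SE; limma adjusted p = 0.00512) and passed in all 14 alternative fits. The nearest coding gene is Scgb2a2, of the secretoglobin family of secreted proteins, 10665 bases away in divergent orientation.

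Gm47251 rose with a similar size and a wider spread. It (ENSMUSG00000113238, chr13:65252704-65253703, minus strand) had 1.18, 0.578 and 0.911 FPKM in control and 1.81, 1.46 and 2.23 FPKM in exosome libraries. The groups did not overlap, and the log2 difference was 0.59 ± 0.16 (SE, limma adjusted p = 0.0292). Leaving out control library 2 or 3, or any exosome library, ended the call (limma adjusted p = 0.0504 to 0.078). It is the only one of the 44 genes whose nearest coding gene is itself in the table. That gene, the predicted gene Gm10775, lies 5836 bases away in divergent orientation and had 0.105, 0.114 and 0 FPKM in control and 0 in all exosome libraries (limma adjusted p = 0.113).

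Gm13855 (ENSMUSG00000087613, chr6:34179232-34186392, plus strand) lies, by its GENCODE span, 2121 bases from the nucleotide sugar transporter gene Slc35b4 in divergent orientation. It had 0.237, 0.339 and 0.5 FPKM in control and 0.67, 0.938 and 0.969 FPKM in exosome libraries. All exosome values were above all control values. The rise was 2.39-fold, a log2 difference of 0.45 ± 0.10 (SE; limma adjusted p = 0.0188), and the call ended when control library 2, exosome library 2 or exosome library 3 was left out (limma adjusted p = 0.0513 to 0.0631). Gm13485, the gene farthest from any coding gene at 251113 bases from Mmadhc, rose, with 0.145 ± 0.0944 FPKM in control and 0.499 ± 0.089 FPKM in exosome libraries (SD, n = 3; limma adjusted p = 0.0161, but 0.0522 and 0.0508 without exosome library 2 or 3). The rise was 3.43-fold, and 5.4-fold without control library 3.

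In 11 genes 1 group had no read at all. Control libraries were at 0 for 4930487D11Rik, 2310040G24Rik, Gm5493, A330102I10Rik and Gm16025. Exosome libraries were at 0 for Gm43913, 6030407O03Rik, Gm40621, Gm36500, Gm49256 and CR974462.2. Over all 680 genes, 23 were at 0 in every control library and 87 in every exosome library. Of the 11, 3 passed, namely 4930487D11Rik, Gm5493 and Gm49256. A fold against a group at 0 was computed here against a floor of 3 reads over that group. This floor covers counting error in the group at 0 only, and the reads of the other group are taken as observed. The result is therefore not a lower limit of the fold itself. The floor also takes reads as independent. A floor of 6 reads allows 2 reads per fragment and was added after seeing the data. It gives 2.5-fold for 4930487D11Rik, 3.89-fold for Gm5493 and 2-fold for Gm49256.

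4930487D11Rik (ENSMUSG00000106932, chr5:38344435-38349197, plus strand) had 0.585, 0.249 and 0.33 FPKM in the exosome libraries, from 9, 4 and 5 reads (limma adjusted p = 0.0162). Its level was 5-fold higher by the floor of 3 reads and 2.5-fold by that of 6. Its 3 exons sum to 295 bases. It lies 76 bases from Slc2a9, a urate transporter gene on the opposite strand, in convergent orientation, with the starts 158708 bases apart. Gm5493 (ENSMUSG00000098164, chr17:22739945-22751509, plus strand) had 0.118, 0.0753 and 0.0799 FPKM, from 12, 8 and 8 reads (limma adjusted p = 0.0171). It was 7.78-fold higher by the floor of 3 reads and 3.89-fold by that of 6. Both calls held when any 1 library was left out.

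The other genes at 0 in the control group were uneven between the exosome libraries. 2310040G24Rik had 2, 4 and 10 reads, A330102I10Rik 6, 2 and 13 reads and Gm16025 3, 2 and 10 reads in exosome libraries 1, 2 and 3. In all of these exosome library 3 was the highest, and none passed (limma adjusted p = 0.0751, 0.0957 and 0.162). A330102I10Rik lies 60686 bases from Sox4, a transcription factor gene with a role in bone formation, in divergent orientation.

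Among the genes at 0 in the exosome group, Gm49256 (ENSMUSG00000115141, chr14:52023284-52024108, plus strand) had 0.0612, 0.111 and 0.1 FPKM in control, from 2, 4 and 4 reads (limma adjusted p = 0.0186). It was 4-fold lower by the floor of 3 reads and 2-fold by that of 6. The call was lost without any 1 of the exosome libraries (limma adjusted p up to 0.0611). As these are all at 0, the log2 difference stayed at −0.125, so the loss came with fewer libraries and not with a changed difference. The others had uneven control libraries. 6030407O03Rik had 2, 9 and 2 reads, Gm43913 4, 1 and 7 reads, and Gm40621 2, 4 and 4 reads. Gm36500 had 8, 6 and 0 reads, and CR974462.2 0, 5 and 10 reads, so that 1 control library of each was at 0 like the exosome libraries. None of these 5 passed (limma adjusted p = 0.168, 0.175, 0.0672, 0.126 and 0.111).

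**Figure D4:**
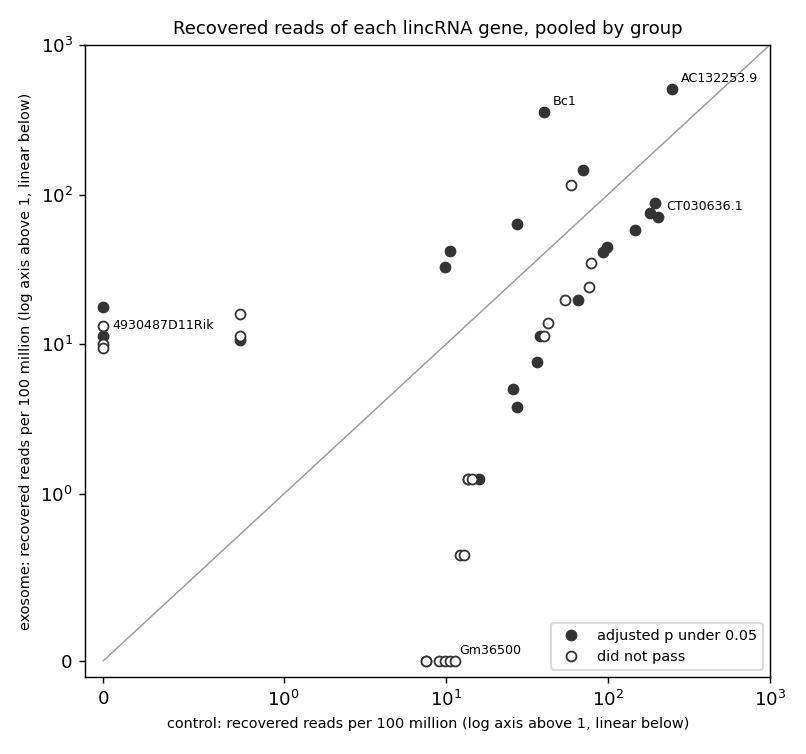
Recovered reads of the 43 lincRNA genes with whole reads, scaled to equal depth and pooled over 3 control libraries (x axis) and 3 exosome libraries (y axis); axes are logarithmic above 1 and linear below. Points on an axis are the 11 genes with no read in 1 group.

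A further 9 genes had 1 to 3 reads in 1 of the groups, and of these Gm45349, Gm40040 and Gm48709 passed. Gm45349 had 0, 0 and 1 read against 3, 8 and 6, Gm40040 had 7, 5 and 6 against 0, 2 and 0, and Gm48709 had 4, 10 and 7 against 1, 1 and 0 (control against exosome; limma adjusted p = 0.033, 0.0129 and 0.0273). Gm40040 passed whichever library was left out, while Gm45349 passed in 1 and Gm48709 in 2 of the 6 such fits (limma adjusted p up to 0.094 and 0.0792). After median centring Gm40040 and Gm48709 no longer passed (limma adjusted p = 0.249 and 0.839). Control library 1 was at 0, like 1 or more exosome libraries, in 9430002A10Rik and Gm36635, which did not pass. Gm33148 had the lowest level of the 44, a mean of 0.01 FPKM. It lies 29962 bases from Igf2, the gene of a fetal growth factor in an imprinted region that also holds the lncRNA gene H19, and did not pass (limma adjusted p = 0.344).

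Of the 29 lower genes, 15 had their highest control value in library 2, 8 in library 3 and 6 in library 1. Of the 15 higher genes, 6 each had their highest exosome value in libraries 1 and 3 and 3 in library 2.

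By GENCODE spans, the nearest protein-coding gene lay at a median of 8747 bases (9876 for the 15 higher and 7618 for the 29 lower genes). In 17 genes it was within 5 kb and in 6 within 1 kb, and in 6 it was more than 100 kb away. The orientation was divergent for 15 genes, of which 7 were higher, and convergent for 10, of which 5 were higher. Of 11 genes downstream of a coding gene on its own strand 2 were higher, and of 7 upstream on its own strand 1 was. These counts are a description of genes that had been listed as changed, and no test was made of them.

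For 43 of the 44 genes the nearest coding gene was not listed. Within 200 kb, a distance chosen after the values were seen, 12 of the 44 had another listed row, and 7 pairs involved a coding gene, 4 of them with both genes lower and 3 in opposite directions. Gm32364 (ENSMUSG00000112558, chr10:67575883-67586387, plus strand) lies 33695 bases from Egr2, an inducible transcription factor gene, and 26928 bases from Ado, its nearest coding gene. It had 0.884, 1.04 and 0.469 FPKM in control and 0.0791, 0.303 and 0.321 FPKM in exosome libraries, without overlap (log2 difference −0.53 ± 0.15, SE, limma adjusted p = 0.0331). Egr2 had 4.17, 6.77 and 2.41 against 2.26, 1.96 and 1.7 FPKM (limma adjusted p = 0.0692). Both were highest in control library 2 and lowest, among the control libraries, in library 3. Among the exosome libraries the order was opposite: Gm32364 was lowest in library 1 and highest in library 3, and Egr2 the reverse. The call of Gm32364 was lost when any library other than control library 3 was left out (limma adjusted p up to 0.0857). The pairs in opposite directions were 1810012K08Rik with Ccdc187, Gm47251 with Gm10775 and AC132253.9 with Best1, whose coding partners all had means under 0.1 FPKM.

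Promoter windows of 300 bases around a start were found in RefSeq (GRCm38.p6) for 16 of the 44 genes, 25 windows in all. The series title names the PERK-ATF4 pathway, so both strands were searched for TGATGNAAT, the composite element bound by ATF4 with C/EBP proteins, for the cAMP response element TGACGTCA, and for the endoplasmic reticulum stress response element, CCAAT and CCACG with 9 bases between them. The first was in 1 of the 25 windows, that of Gm34934, and in 0.965% of 32851 windows in RefSeq. The cAMP and stress response elements were in none of the 25, and in 1.79% and 0.119% of all windows. A match is a string of letters and not a site known to be bound. The window of Gm34934 (GRCm38.p6, chr14:46882750-46883049, minus strand) is shown because it holds that match, in capitals.
Gm34934: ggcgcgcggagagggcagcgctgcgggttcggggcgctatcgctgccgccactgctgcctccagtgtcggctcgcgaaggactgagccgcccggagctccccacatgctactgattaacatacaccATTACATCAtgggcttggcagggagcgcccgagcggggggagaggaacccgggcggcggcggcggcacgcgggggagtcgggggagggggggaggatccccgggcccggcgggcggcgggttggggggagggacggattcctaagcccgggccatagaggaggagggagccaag
By GENCODE starts, Gm34934 is the only one of the 44 that starts head to head with a coding gene within 1 kb. It lies 97 bases from Samd4, the gene of an RNA-binding repressor of translation. RefSeq starts can differ. The RefSeq windows of Gm13855 (chr6:34176798-34177097) and Gm36500 (chr13:34130228-34130527) lie before their GENCODE starts (34179232 and 34133860). Those windows are nearer to the divergent coding genes Slc35b4 and Tubb2b, so a count by RefSeq starts may be larger. The window of Gm34934 was 72.3% G or C, against a median of 52.7% over all windows. Gm34934 had 0.102, 0.118 and 0.154 FPKM in control and 0.34, 0.223 and 0.183 FPKM in exosome libraries, a 1.99-fold difference without overlap that did not pass (log2 difference 0.15 ± 0.05, SE, limma adjusted p = 0.0609). Exosome library 1 was the highest, and exosome library 3 lay close to control library 3.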

How the data were processed

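RNA of 6 MC3T3 libraries (3 control, 3 exosome) was sequenced from kits for messenger RNA, per the labels' protocols. The deposited table holds FPKM values that the authors computed, with 1 column per library matched by library name, and only genes they had selected as changed, per the file headers and the file's name. The aligner, counter, strand setting, build, annotation and selection threshold are not given in the sources used here.

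Identifiers were matched to GENCODE M21 (GRCm38), 672 of 680. FPKM times summed exon length gave whole reads within 0.02 for 661 genes, and the step gave the depths. Depth limits weak genes: intervals cover counting error only, and floors (3 reads) cover that of the group at 0 only. The main test was limma 3.58.1 (R 4.3.3) on log2(FPKM + 1), two-sided, on the whole table. Log2 differences on this scale understate changes of weak genes; each fold divides 1 group's mean FPKM by the other's. The fit was tested on simulated data.

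The members, gene lists and tests were chosen with earlier results of these data known. Values in every library are given for the 8 genes of highest mean level, the 5 largest log2 rises and falls that passed, genes with established names, genes whose nearest coding gene is listed and genes at 0 in 1 group. Further genes (Gm32364, Gm34934, Gm33148, Gm13485, G930009F23Rik, 9430002A10Rik, Gm36635, Gm5122 and those with 1 to 3 reads that passed), the 200 kb window and the sequence runs marked in capitals were chosen after their values were seen. Alternatives were pseudocounts of 0.1 and 0.01, minimum levels of 1 FPKM or 10 reads, median centring, a robust prior with a trend, a replicate block, limma-voom on recovered reads, each library left out, and members without overlapping genes. A limit to members not classed as coding or pseudogene by RefSeq, a floor of 6 reads and a sum without 4 leading genes were added after seeing the data.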

Additional observations from a re-analysis of the deposited data

How the results depend on the processing

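The main count was 24 of 44 lincRNA genes (9 higher, 15 lower) and 403 of 680 genes (105 higher, 298 lower). A pseudocount of 0.01 FPKM gave 42 lincRNA genes (15 higher, 27 lower) and 611 genes (455 lower), and limma-voom on recovered reads gave 43 of 43 (15 higher, 28 lower) and 624 of 661 (472 lower). Among genes with at least 1 FPKM, 8 of 8 lincRNA genes passed (3 higher, 5 lower) and 162 of 173 genes (63 higher, 99 lower), with fewer genes tested. Median centring, which adds 0.146 to each log2 difference, gave 17 higher and 5 lower lincRNA genes and 212 higher and 112 lower genes. The median is that of genes listed as changed, most of them lower, so this fit cannot test library scaling. Centring kept a call for 14 of the 24. It reversed 13 weak lincRNA genes, whose falls were smaller than that shift, to 0.12 (Gm33148), 0.10 (Gm43913), 0.089 (6030407O03Rik), 0.088 (Gm40621), 0.064 (Gm40909), 0.061 (AC112949.1), 0.054 (Gm46378), 0.051 (Gm36500), 0.034 (Gm36635), 0.027 (AI427809), 0.021 (Gm49256), 0.0080 (Gm20342) and 0.0062 (4933413J09Rik). Leaving out 1 library gave 9 to 26 lincRNA genes (3 to 7 higher, 5 to 19 lower) and 164 to 356 genes (48 to 78 higher, 116 to 280 lower); the lowest counts came without exosome library 2 (9) or 3 (10) and control library 2 (14). The replicate block gave 13 lincRNA genes (5 higher, 8 lower), all among the 24 but without Gm40040, Gm5493 and Bc1 (limma adjusted p = 0.0514, 0.066 and 0.066), and 201 genes (54 higher, 147 lower). Deviations from the group mean correlated by −0.135, 0.077 and −0.222 between libraries of the same number, so the numbers were not taken to pair libraries. A pseudocount of 0.1, a minimum of 10 reads, the trended prior and either limit on members moved the counts by at most 1.5 times; 19 of 35 lincRNA genes without overlapping genes passed. Of the 24 genes, 8 passed whichever library was left out and 6 in every alternative they could enter: 4930487D11Rik, AC132253.9, CT030636.2, G930009F23Rik, Gm11377 and Zfp469. No matching share over the 680 genes is given here, and every fit reused the libraries from which the genes were picked. These counts therefore do not set the lincRNA genes apart. Of the 44 genes, 22 had under 10 reads per library, which limits what can be said of them.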
